A study of Mus musculus with 26 samples.

Results

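Tet1, Tet2 and Tet3 are the 3 genes of the TET family of DNA dioxygenases, and they are described here across 13 groups of mouse pluripotent cells. Rows of the deposited array table annotated to one of these symbols alone were taken, and for each gene the row (a probe set, a group of short probes for one transcript) with the highest mean over 26 arrays gave its level. The members are thus 3 of 18193 measured genes, and 7 of 45100 rows: 4 for Tet1, 2 for Tet2 and 1 for Tet3. All 3 genes were tested in every comparison, with no filter on low values.

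TET proteins are iron- and 2-oxoglutarate-dependent enzymes that oxidise 5-methylcytosine in DNA to 5-hydroxymethylcytosine and further oxidised bases, which can be lost through DNA replication or replaced by base excision repair. Tet1 and Tet3 can carry a CXXC domain that binds CpG-rich DNA, whereas Tet2 lacks one and has the neighbouring gene Cxxc4 as the source of its missing CXXC part. Mouse embryonic stem cells are known to rely mainly on Tet1 and Tet2, and Tet3 is best known from the oocyte and zygote.

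The study measured mRNA on Affymetrix arrays to compare cells that differ in Prdm14, a PR-domain regulator of naive pluripotency and germ cells, across culture media. Each of the 13 groups held 2 arrays, and all cells were C57BL/6 and male. Nothing in the labels tells whether both arrays of a group are separate cultures. The p-values therefore reflect the variation among these arrays alone, which could be technical. Wild-type cells, Prdm14(+/+), and knockout cells, Prdm14(-/-), were grown in 4 media on mouse embryonic fibroblast feeders. The first medium, 2i, was N2B27 with 0.4 uM of the MEK inhibitor PD0325901, 3 uM of the GSK3 inhibitor CHIR99021 and 1000 units per ml of LIF. The others, each used for 2 days, were medium with 20% serum and LIF, the same serum medium lacking LIF, and serum medium with 0.4 uM PD0325901. AGP14 cells were Prdm14(-/-) cells with a pPyCAG-driven transgene for Avitag-EGFP-tagged Prdm14, grown in 2i, in serum and in serum lacking LIF, so they share the deletion with the knockout. EpiLC (epiblast-like cells) were sampled on day 2 and day 3 and derive from another line, with intact Prdm14 and the reporters Blimp1-mVenus and Stella-ECFP.

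Values are the deposited signals, read as base-2 logarithms because their highest value was 13.89; the base itself is not stated, so every fold below rests on it. A difference is the first group's mean minus the second's on that scale, with the standard error (SE) of the fit. A gene passed a comparison when limma's adjusted p was under 0.05, and "rose" and "fell" are used only of genes that passed.

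The RefSeq promoter window of each gene (assembly GRCm38.p6) was examined for letters the 3 genes share. The table gives 1 transcript start per gene, and these starts lie inside the gene spans, by 145 bases in Tet1, 746 in Tet2 and 15530 in Tet3, so each span extends upstream of the start used. Of the stretches shown, that of Tet1 lies upstream of its gene span and those of Tet2 and Tet3 inside theirs. Each 250-base window before that start held 1 match to GGGCGG, the GC box of Sp1-type factors, counted on both strands with no overlapping matches. A match was also present in 32.7% of all 32851 windows of this length. The stretches below run 5′ to 3′ on the gene's strand, 30 bases each, with the match, or its reverse complement, in capitals; they lie at chr10:62887545-62887574, chr3:133544391-133544420 and chr6:83441679-83441708, all on the minus strand.
Tet1: ggagggagcgcGGGCGGaatttcaggaaag
Tet2: gctcgcatgccagtcacgtCCGCCCcctcg
Tet3: ttggctggcgcgcgcgCCGCCCccttgcac
The match began 239 bases before that transcript start in Tet1, on the gene's strand, but 11 bases before it in Tet2 and 14 in Tet3, both on the opposite strand. The Tet2 window was the richest in CpG, with 51 CpG dinucleotides and 83.6% G or C, at the 99.9th percentile of all windows. Tet1 had 15 CpG and Tet3 had 17, at the 72.7th and 76.5th percentiles. None of the 3 windows held TCAAGGTCA (the element of Esrrb and Nr5a2, in 0.39% of windows), TTCNNNGAA (the STAT element, 7.02%) or CACGTG (an E-box, 6.02%), each searched on both strands; this concerns only these letters in these windows. In the same annotation the genes span chr10:62804570-62887469 (Tet1), chr3:133463677-133545136 (Tet2) and chr6:83362373-83457208 (Tet3).

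Prdm14 itself did not follow the genotype labels. Its signal in 2i was 11.28 ± 0.06 (SD, n = 2) on the arrays labelled knockout against 9.18 ± 0.32 (n = 2) on those labelled wild type, and in serum it was 5.94 ± 0.76 against 6.63 ± 1.06. On the AGP14 arrays it was 9.20 ± 0.13 in 2i, 6.38 ± 0.06 in serum and 4.99 ± 0.18 lacking LIF. AGP14 against knockout was -2.08 in 2i (adjusted p = 0.001), 0.44 in serum (adjusted p = 0.593) and 1.36 lacking LIF (adjusted p = 0.0326). Where the deletion lies relative to the probes is not stated in the sources at hand, so this probe set checks no label, and "knockout" and "AGP14" below name arrays by their labels. Pou5f1, a core pluripotency factor, lay between 12.20 and 12.73 in all 13 group means. Fgf5, a marker of the epiblast state, was 9.66 in EpiLC of day 2 and 8.28 on day 3, against 3.42 in wild-type 2i. Lacking LIF, Fgf5 was 10.24 in knockout and 9.69 in wild type. The mean of 10 epiblast-like markers was 9.68 in EpiLC of day 2 and 8.72 on day 3. It was 9.71 in knockout and 9.63 in wild type lacking LIF, so these markers do not set EpiLC apart from those groups. Of 18 feeder fibroblast markers 17 were measured, none at 0 on any array; their mean level per array was 8.67 to 9.33 in 2i, 7.99 to 8.30 with MEK inhibitor, 6.89 to 7.71 in serum with or without LIF and 5.93 to 6.28 in EpiLC.

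The arrays also fell into 2 sets by the Bacillus lys transcript, a control spiked into the RNA before labelling. Its signal was 13.54 to 13.62 on 12 arrays (wild type and knockout in 2i and with MEK inhibitor, and both EpiLC groups) and 8.02 to 8.48 on the other 14. The controls dap and phe split the same way, whereas thr and the hybridisation control cre overlapped between the sets. Every group lay within 1 set, so for serum against 2i in wild-type and knockout cells, MEK inhibitor against serum, and AGP14 against either genotype in 2i, set and group cannot be told apart. Of the 22 comparisons below 16 stay within a set.

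On the main probe sets Tet1 was strongly expressed and differed by at most 1.00 in the 22 comparisons, Tet2 by at most 2.44, and Tet3 was near the bottom of the scale. Over 26 arrays the Tet1 signal averaged 11.18 and ranged from 10.36 to 11.87, placing its mean at the 96.1st percentile of genes. Tet2 averaged 8.56 and ranged from 6.99 to 10.04, at the 75.8th percentile. Tet3 averaged 2.38 and ranged from 0.51 to 3.64, at the 8.5th percentile. Probe sets bind their targets to different degrees, so the levels of the 3 genes are not compared with each other. Tet1 passed in 16 of 22 comparisons (10 of the 16 within a set), Tet2 in 9 (4 within a set) and Tet3 in 0, with 0 also at an unadjusted p under 0.05; the share of all genes that passed is given with each comparison.

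**Figure D1:**
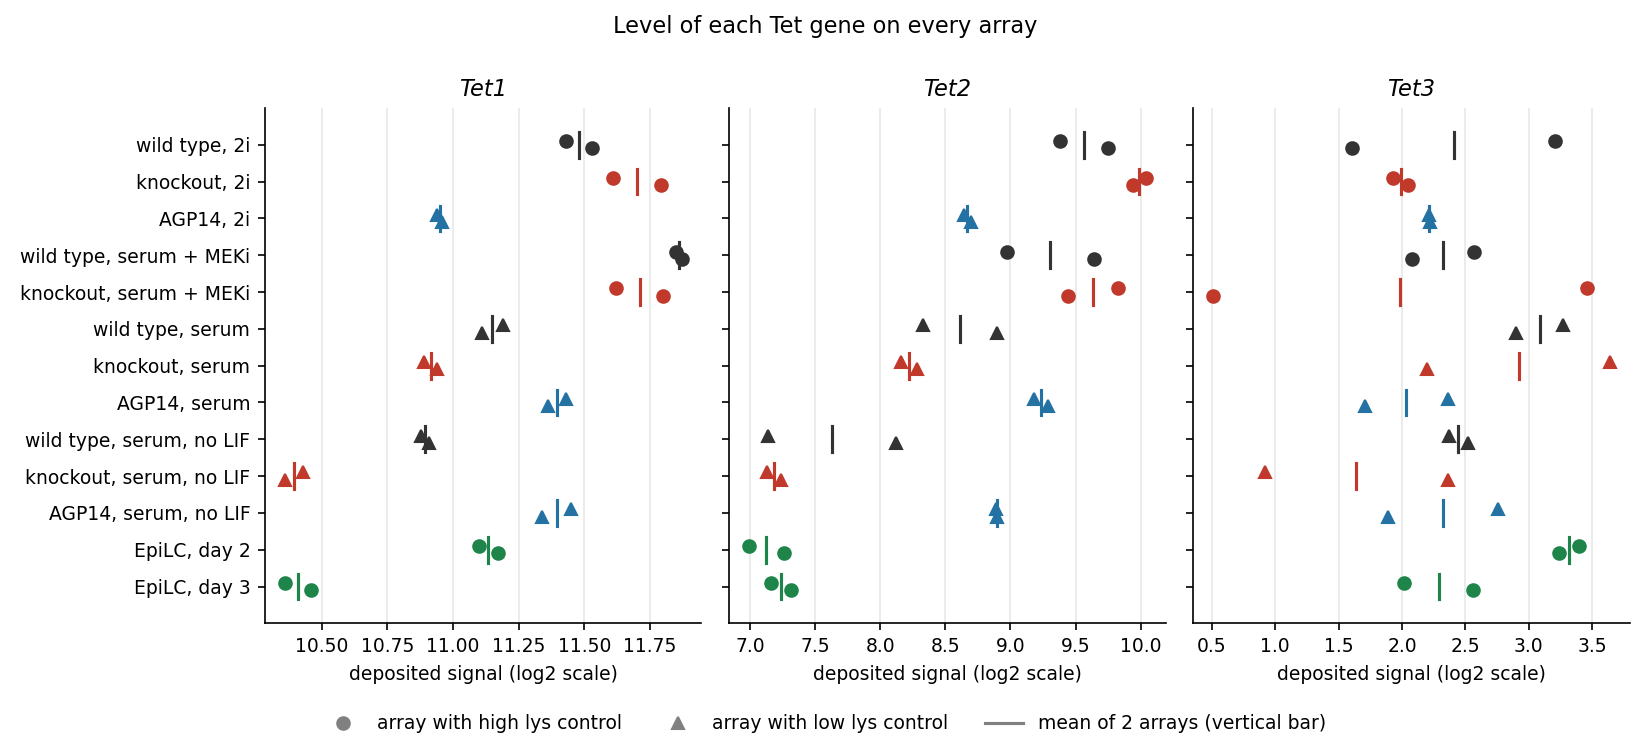
Deposited signal (log2 scale, x axis) of Tet1, Tet2 and Tet3 in the 13 groups (y axis), 1 point per array and a vertical bar for the mean of 2 arrays; circles are arrays with the high and triangles with the low lys control, and each panel has its own x range. On the main probe sets shown, knockout cells lacking LIF and EpiLC of day 3 hold the lowest Tet1 means (10.40 and 10.41), and the Tet3 arrays of a group lie up to 2.95 apart.

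Tet1 was highest with MEK inhibitor, at 11.86 ± 0.01 in wild type and 11.71 ± 0.13 in knockout (SD, n = 2, as for all group means), followed by knockout in 2i at 11.70 ± 0.13 and wild type in 2i at 11.48 ± 0.07. Both AGP14 groups in serum, with and without LIF, were at 11.40. Below these came wild type in serum at 11.15 ± 0.06, EpiLC of day 2 at 11.14 ± 0.05, AGP14 in 2i at 10.95 ± 0.01, knockout in serum at 10.92 ± 0.04 and wild type lacking LIF at 10.90 ± 0.02. EpiLC of day 3 (10.41 ± 0.07) and knockout lacking LIF (10.40 ± 0.05) stood 0.49 below the rest on this main probe set. Arrays overlapped between neighbours in this order for 7 of the 12 neighbouring pairs, including knockout with MEK inhibitor and knockout in 2i, wild type in serum and EpiLC of day 2, and the lowest pair. The low place of EpiLC of day 3 depends on the probe set. On the further Tet1 probe set 1429448_s_at it read 10.47, above wild type in serum (10.38) and EpiLC of day 2 (10.16). On 1419896_at it read 8.10, above wild type in serum (7.84), but these groups lie in different lys sets. Within the high set EpiLC of day 3 was the lowest group on 1419896_at, below EpiLC of day 2 (8.79). Knockout lacking LIF stayed low on both probe sets, at 9.20 and 6.74.

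Tet2 was highest in knockout cells in 2i, at 9.99 ± 0.07, then in knockout with MEK inhibitor (9.64 ± 0.28), wild type in 2i (9.57 ± 0.26), wild type with MEK inhibitor (9.30 ± 0.47) and AGP14 in serum (9.24 ± 0.08). AGP14 lacking LIF (8.90 ± 0.01), AGP14 in 2i (8.67 ± 0.04), wild type in serum (8.62 ± 0.40) and knockout in serum (8.22 ± 0.08) were in the middle. The lowest means were wild type lacking LIF (7.63 ± 0.69), EpiLC of day 3 (7.24 ± 0.11), knockout lacking LIF (7.18 ± 0.08) and EpiLC of day 2 (7.12 ± 0.19). Arrays of those 4 groups overlapped from each to the next. Wild-type replicate 2 was higher than replicate 1 in all 4 media, by 0.37 to 0.98 on this probe set and by 0.25 to 0.79 on the other Tet2 probe set, and the wild-type groups in serum, lacking LIF and with MEK inhibitor have the 3 largest SDs of Tet2. The orders of Tet1 and Tet2 both run across the lys sets. Wild type and knockout in 2i and with MEK inhibitor, the highest groups of both genes, all lie in the high set, as do both EpiLC groups. Ranks across the sets cannot be told apart from the set.

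The question of Prdm14 loss was addressed by setting knockout against wild type in each medium. Tet1 fell in the knockout in medium lacking LIF, and in no other medium did Tet1 or Tet2 pass. Lacking LIF, the knockout arrays read 10.43 and 10.36 for Tet1 and the wild-type arrays 10.88 and 10.91. Both knockout arrays lay below both wild-type arrays, a difference of -0.50 (SE 0.07, adjusted p = 0.000419), or 1.41-fold lower, where 4.19% of all genes passed. The 2 other bright Tet1 probe sets gave -0.55 and -0.57, and a fit of these 4 arrays alone did not pass (adjusted p = 0.0967). The feeder markers averaged 7.44 in these knockout arrays against 7.04 in wild type, and 4 of 10 stem cell and naive markers fell as well, among them Esrrb (-1.17, SE 0.27, adjusted p = 0.0164); their part in the Tet1 difference was not tested. In bulk samples such as these, fewer cells of a type and less RNA per cell cannot be told apart.

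In serum the knockout arrays read 10.89 and 10.94 for Tet1 against 11.19 and 11.11 in wild type, and with MEK inhibitor 11.62 and 11.80 against 11.85 and 11.87. The knockout was lower in both without overlap, by -0.23 (SE 0.07, adjusted p = 0.0678) and -0.15 (adjusted p = 0.326), and neither passed; 4.17% and 4.08% of genes did. In 2i the order was the other way round: the knockout arrays at 11.61 and 11.79 lay above the wild-type arrays at 11.43 and 11.53. That difference of 0.22 (adjusted p = 0.0589) did not pass either, where 9.15% of genes did, and a second bright Tet1 probe set put it at -0.38 (adjusted p = 0.0554), so its direction is not settled. Arrays of both genotypes lie in the high lys set in 2i and in the low set in serum. Set and medium therefore cannot be told apart between these media. The change of the Tet1 genotype difference from 2i to serum was tested directly and passed, at -0.45 (SE 0.10, adjusted p = 0.0203, where 2.97% of genes passed). It did not pass with knockout replicate 2 or wild-type replicate 1 of 2i left out, or with knockout or wild-type replicate 1 of serum left out (adjusted p from 0.0671 to 0.0797), and the second bright probe set gave 0.13.

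Tet2 had the same sign as Tet1 in 2i, in serum and lacking LIF, with wider intervals. Its knockout arrays in 2i read 10.04 and 9.94 against 9.38 and 9.75 in wild type, and in serum 8.16 and 8.28 against 8.33 and 8.90. The differences were 0.43 (95% interval -0.11 to 0.96, adjusted p = 0.371) and -0.39 (-0.93 to 0.14, adjusted p = 0.439). Lacking LIF, the wild-type arrays stood apart from each other at 7.14 and 8.12, and the knockout arrays at 7.13 and 7.24 matched the lower one. The difference of -0.44 (-0.98 to 0.09, adjusted p = 0.391) became 0.05 without wild-type replicate 2. With MEK inhibitor the groups overlapped and differed by 0.33 (-0.20 to 0.86, adjusted p = 0.641). The change of the genotype difference from serum to MEK inhibitor passed for neither gene, where 0.231% of genes did. It was 0.09 for Tet1 (adjusted p = 0.854) and 0.72 for Tet2 (adjusted p = 0.52). The lys set changes from low to high with this medium, so set and medium cannot be told apart here either.

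**Figure D2:**
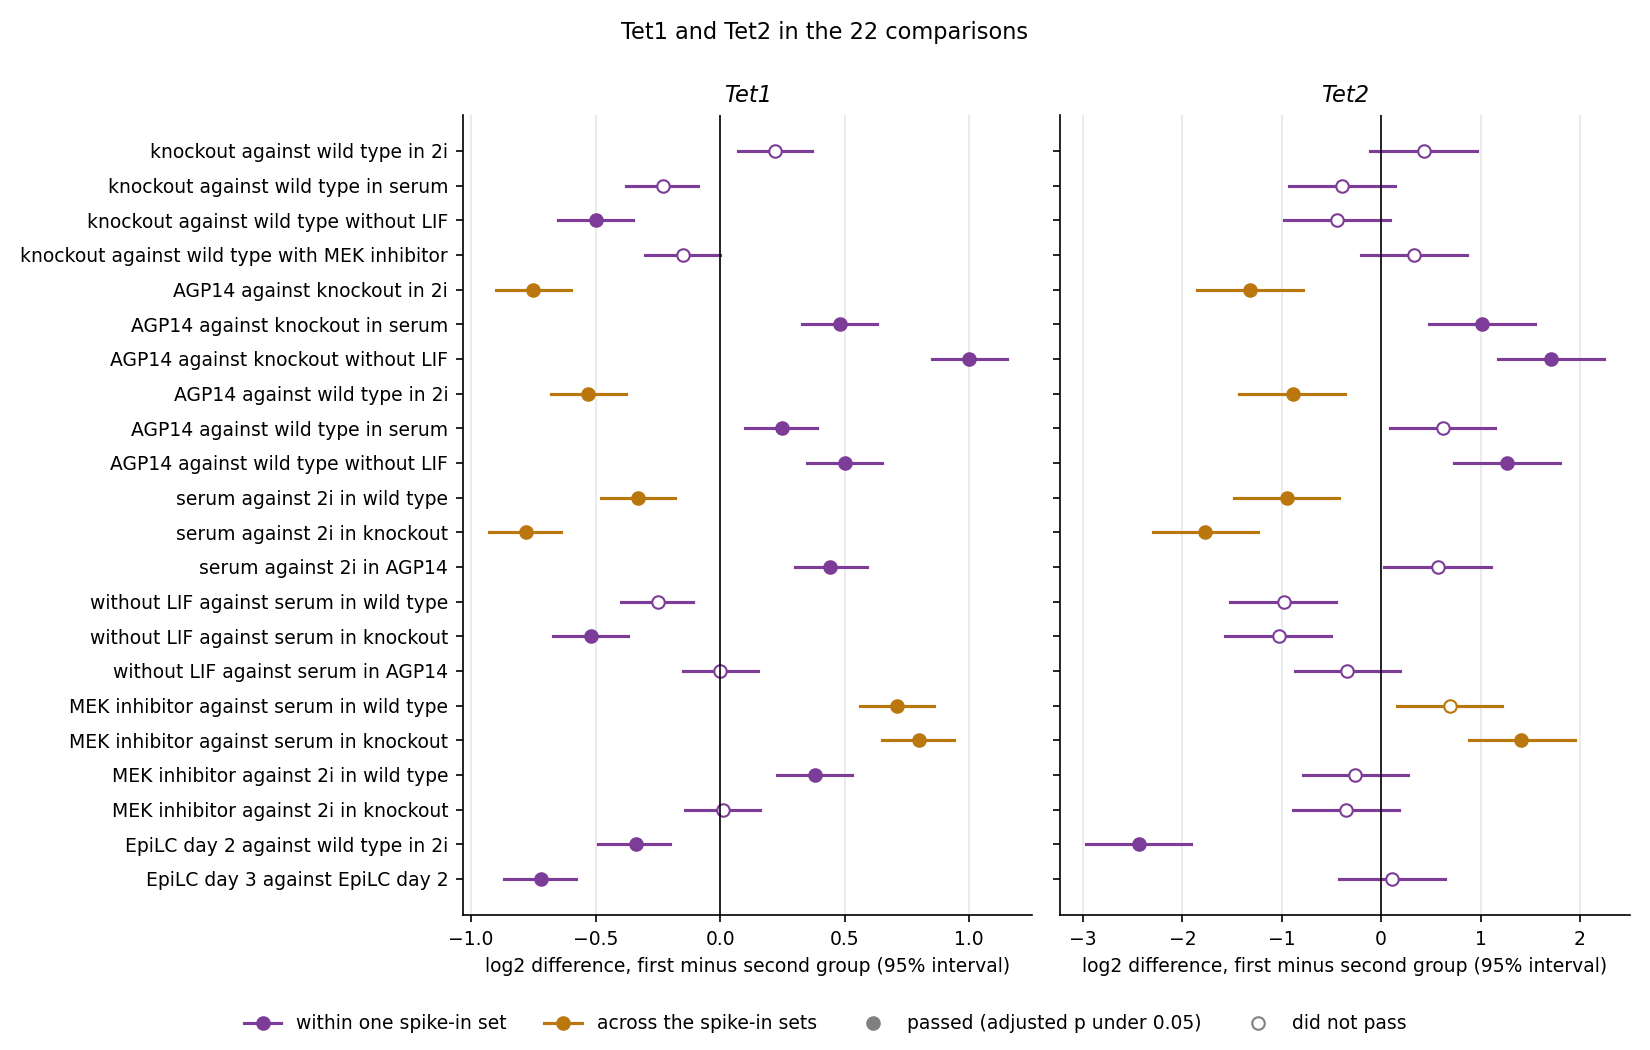
Log2 difference (x axis) of Tet1 and Tet2 in the 22 comparisons (y axis), with 95% intervals of the limma fit; filled points passed, open points did not, purple lines compare arrays of 1 spike-in set and ochre lines compare across the sets. AGP14 against knockout is negative in 2i, where the sets differ (-0.75 and -1.32), and positive in medium lacking LIF (1.00 and 1.71).

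Returning Prdm14 on a transgene was examined by setting AGP14 cells against the knockout, and both Tet1 and Tet2 were higher in AGP14 in serum with and without LIF. Lacking LIF, the AGP14 arrays read 11.45 and 11.34 for Tet1 and 8.89 and 8.90 for Tet2. The knockout arrays read 10.43 and 10.36, and 7.13 and 7.24. All AGP14 arrays lay above all knockout arrays: Tet1 rose by 1.00 (SE 0.07, adjusted p = 4.43e-08), or 2.0-fold, and Tet2 by 1.71 (SE 0.25, adjusted p = 0.000134), or 3.27-fold, where 13.3% of genes passed. The further bright probe sets gave 1.02 and 1.12 for Tet1 and 1.70 for Tet2. On the same arrays 4 of 17 feeder markers rose and 1 fell (mean 7.67 in AGP14 against 7.44), and 8 of the 10 stem cell and naive markers rose, with medians of 0.43 and 2.12 over these lists against 0.01 over all genes. The part of either list in the Tet differences was not tested.

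In serum the AGP14 arrays read 11.43 and 11.36 for Tet1 and 9.18 and 9.29 for Tet2, again above every knockout array. Tet1 rose by 0.48 (SE 0.07, adjusted p = 0.000229) and Tet2 by 1.01 (SE 0.25, adjusted p = 0.0138), against 10.5% of genes. The Tet1 rise was smaller on the 2 other bright probe sets, 0.22 (adjusted p = 0.282) and 0.18 (adjusted p = 0.389), and did not pass there. Tet2 missed the threshold in each of the 4 fits that left out 1 array of the pair of groups (adjusted p from 0.0523 to 0.102), although its size stayed between 0.95 and 1.07. Here 3 of 17 feeder markers rose and 1 fell, and 8 of 10 stem cell and naive markers rose, and their part was not tested.

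The same AGP14 arrays were also above wild type, and these comparisons share the AGP14 arrays with the preceding ones. Lacking LIF, Tet1 was 0.50 higher (SE 0.07, adjusted p = 0.000249) and Tet2 1.27 higher (SE 0.25, adjusted p = 0.00372), with no overlap of arrays for either gene and 10.7% of genes passing. The mean of all 4 Tet1 probe sets gave 0.28 (adjusted p = 0.148). On these arrays 10 of 17 feeder markers (median 0.69) and 9 of 10 stem cell and naive markers (median 1.62) were higher too, as were 4 of 17 and 4 of 10 in serum; their part was not tested. The Tet2 call depends on 1 array: without wild-type replicate 1, which read 7.14, the difference was 0.78 (adjusted p = 0.112). In serum Tet1 passed at 0.25 (adjusted p = 0.043, where 6.96% of genes passed), but in none of the 4 fits with 1 array of either group left out (adjusted p from 0.131 to 0.224), and the other bright probe sets gave -0.03 and 0.09. Tet2 differed by 0.62 in serum (95% interval 0.09 to 1.15, adjusted p = 0.148) and did not pass.

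In 2i the sign was opposite. AGP14 arrays read 10.94 and 10.96 for Tet1 and 8.64 and 8.70 for Tet2, below every knockout and wild-type array of that medium. Against the knockout the differences were -0.75 (adjusted p = 7.6e-07) and -1.32 (adjusted p = 0.00081), with 24.2% of genes passing, and against wild type -0.53 (adjusted p = 2.84e-05) and -0.89 (adjusted p = 0.0139), with 25.4%. The Tet2 difference from wild type did not pass without either AGP14 array (adjusted p = 0.0771 and 0.0583) or without wild-type replicate 2 (0.112). The lys control was low on the AGP14 arrays and high on the others, so here set and genotype cannot be told apart. In both comparisons 8 of 17 feeder markers were lower and 0 higher on the AGP14 arrays (means 8.77 against 9.24 and 9.31), and their part was not tested. The size also depended on the probe set: 1419896_at of Tet1 gave -3.0 against the knockout and -2.85 against wild type, and on all 26 arrays that probe set read 8.10 to 9.96 in the high set and 6.60 to 8.0 in the low set, without overlap. Over the other Tet1 and Tet2 probe sets the ranges of the sets overlapped.

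The response to medium was then followed within each genotype. AGP14 cells are the only ones with 2i and serum in the same set, and there Tet1 rose from 10.94 and 10.96 in 2i to 11.43 and 11.36 in serum, by 0.44 (SE 0.07, adjusted p = 0.000198; 18.2% of genes). The other bright Tet1 probe sets gave larger rises of 0.98 and 1.26. Tet2 was 0.57 higher in serum (95% interval 0.03 to 1.10, adjusted p = 0.142), again without overlap of arrays, and did not pass; with genotype and replicate number as a random block it did (adjusted p = 0.0386). Feeder markers were lower in serum than in 2i on these arrays (means 7.50 and 8.77, with 10 of 17 markers falling and 1 rising), and their part in the Tet1 rise was not tested.

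In wild-type and knockout cells the same change of medium gave the opposite sign. Tet1 was -0.33 in serum against 2i in wild type (adjusted p = 0.00112; 34.6% of genes) and -0.78 in knockout (adjusted p = 8.43e-08; 35.8%). Tet2 was -0.95 in wild type (adjusted p = 0.00622) and -1.77 in knockout (adjusted p = 1.86e-05). The wild-type Tet2 call was lost without 2i replicate 2 (adjusted p = 0.0755) or without serum replicate 1 (0.11). Feeder markers fell in 13 of 17 cases in both genotypes and stem cell and naive markers in 8 of 10, with 1 rising in knockout, and their part was not tested. These comparisons cross the sets, as does the test of the difference between AGP14 and knockout in this response, which passed for both genes (Tet1 1.23, SE 0.10, adjusted p = 4.39e-07; Tet2 2.33, SE 0.36, adjusted p = 0.00027; 14.2% of genes), so set and genotype cannot be told apart in it.

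After 2 days lacking LIF, Tet1 fell in the knockout, the only call among the 3 genotypes for either gene on the main probe sets. Knockout arrays went from 10.89 and 10.94 in serum to 10.43 and 10.36 lacking LIF, a fall of 0.52 in which the arrays did not overlap (-0.52, SE 0.07, adjusted p = 0.000655), while 1.1% of genes passed. Stem cell and naive markers fell in the same comparison in 6 of 10 cases in knockout and 7 of 10 in wild type, and in 0 of 10 in AGP14; their part was not tested. The bright probe sets 1429448_s_at and 1419896_at gave -0.93 and -1.03, and a fit of only these 4 arrays did not pass (adjusted p = 0.0763). In wild type the same bright probe sets passed as well, at -0.63 (adjusted p = 0.0114) and -0.54 (adjusted p = 0.0202), whereas the main one did not. In AGP14 neither of them passed (-0.13 and -0.08). Wild-type Tet1 differed by -0.25 (95% interval -0.40 to -0.11, adjusted p = 0.0829; 1.5% of genes), and AGP14 Tet1 by 0.00 (-0.15 to 0.15, adjusted p = 1; 0.302% of genes). The difference between the AGP14 and the knockout response was 0.52 (SE 0.10, adjusted p = 0.0588, with 0.077% of genes passing), and that between knockout and wild type was -0.27 (adjusted p = 1); neither passed, so the responses are not shown to differ. With arrays of the same genotype and replicate number as a random block, the first of these passed (0.52, adjusted p = 0.0124).

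Tet2 was lower lacking LIF in all 3 genotypes but passed in none. Its difference was -0.98 in wild type (adjusted p = 0.0581), -1.03 in knockout (adjusted p = 0.0561) and -0.34 in AGP14 (adjusted p = 0.673). Arrays did not overlap between the media in any of the 3 genotypes. In wild type the size followed single arrays: it was -1.47 without the lacking-LIF replicate 2, with an adjusted p of 0.00516, and -1.27 without serum replicate 1, with 0.0325, but -0.49 (adjusted p = 0.525) without the lacking-LIF replicate 1 and -0.70 (adjusted p = 0.483) without serum replicate 2. Arrays of the same genotype and replicate number deviated together across media, and with them as a random block the Tet2 differences passed in wild type (-0.98, adjusted p = 0.00623) and knockout (-1.03, adjusted p = 0.00466), as did wild-type Tet1 (-0.26, adjusted p = 0.0253).

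Adding the MEK inhibitor to serum was compared with serum alone and with 2i. Against serum, across the sets, Tet1 was 0.71 higher in wild type (adjusted p = 1.07e-06; 25.4% of genes) and 0.80 higher in knockout (adjusted p = 2.72e-07; 24.5%). Tet2 was 0.69 higher in wild type (adjusted p = 0.0528, or 0.0092 with genotype and replicate number as a random block) and 1.41 higher in knockout (adjusted p = 0.000402). The wild-type Tet2 value moved from 0.36, without replicate 2 with MEK inhibitor, where it did not pass (adjusted p = 0.471), to 1.03, without replicate 1, where it did (0.0145). It was 0.40 without serum replicate 1 (adjusted p = 0.402) and 0.97 without serum replicate 2 (0.0237). Feeder markers rose in the same comparisons, 13 of 17 in wild type, where 1 fell, and 12 of 17 in knockout, each with a median of 1.14, and so did 7 and 9 of 10 stem cell and naive markers; their part was not tested. Against 2i, within a set, wild-type Tet1 rose from 11.43 and 11.53 to 11.85 and 11.87, by 0.38 (SE 0.07, adjusted p = 0.00134; 12.5% of genes). Probe set 1419896_at gave 0.37, but 1429448_s_at gave 0.04 (adjusted p = 0.897), and a fit of only these 4 arrays did not pass (adjusted p = 0.0851). Feeder markers averaged 8.27 with MEK inhibitor and 9.31 in 2i on these arrays, 11 of 17 falling and 2 rising, and their part was not tested. Knockout Tet1 differed by 0.01 (95% interval -0.14 to 0.16, adjusted p = 0.968; 13.2% of genes), and Tet2 by -0.26 in wild type and -0.35 in knockout, with intervals that include 0.

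EpiLC had lower Tet1 and much lower Tet2 than wild-type cells in 2i. On day 2 the Tet2 arrays read 6.99 and 7.26 against 9.38 and 9.75, a fall of 2.44 (-2.44, SE 0.25, adjusted p = 2.91e-07), or 5.43-fold. Tet1 read 11.10 and 11.17 against 11.43 and 11.53 and fell by 0.34 (-0.34, SE 0.07, adjusted p = 0.000595), or 1.27-fold, where 38.3% of genes passed. No array overlapped between the groups for either gene, the further Tet2 probe set gave -2.32, and the bright Tet1 probe sets gave -0.67 and -0.73. The reporter line and the cell state change together in this comparison, so they cannot be told apart. Feeder markers averaged 5.97 on these EpiLC arrays and 9.31 in 2i, and Col1a1, a fibroblast collagen, was 2.74 against 9.70; the feeder and Tet signals were lower on the same arrays, and the part of the feeders was not tested.

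From day 2 to day 3 Tet1 fell on its main probe set and Tet2 did not pass. Tet1 went from 11.10 and 11.17 to 10.36 and 10.46, falling by 0.72 (-0.72, SE 0.07, adjusted p = 9.65e-07; 17.6% of genes), and 1419896_at gave -0.69. The second brightest Tet1 probe set, 1429448_s_at, gave 0.30 in the other direction (adjusted p = 0.0935). Tet2 differed by 0.11 (95% interval -0.42 to 0.64, adjusted p = 0.839), whereas its further probe set rose by 0.76 (adjusted p = 0.0352). For both genes, then, the day 3 value depends on the probe set read.

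**Figure D3:**
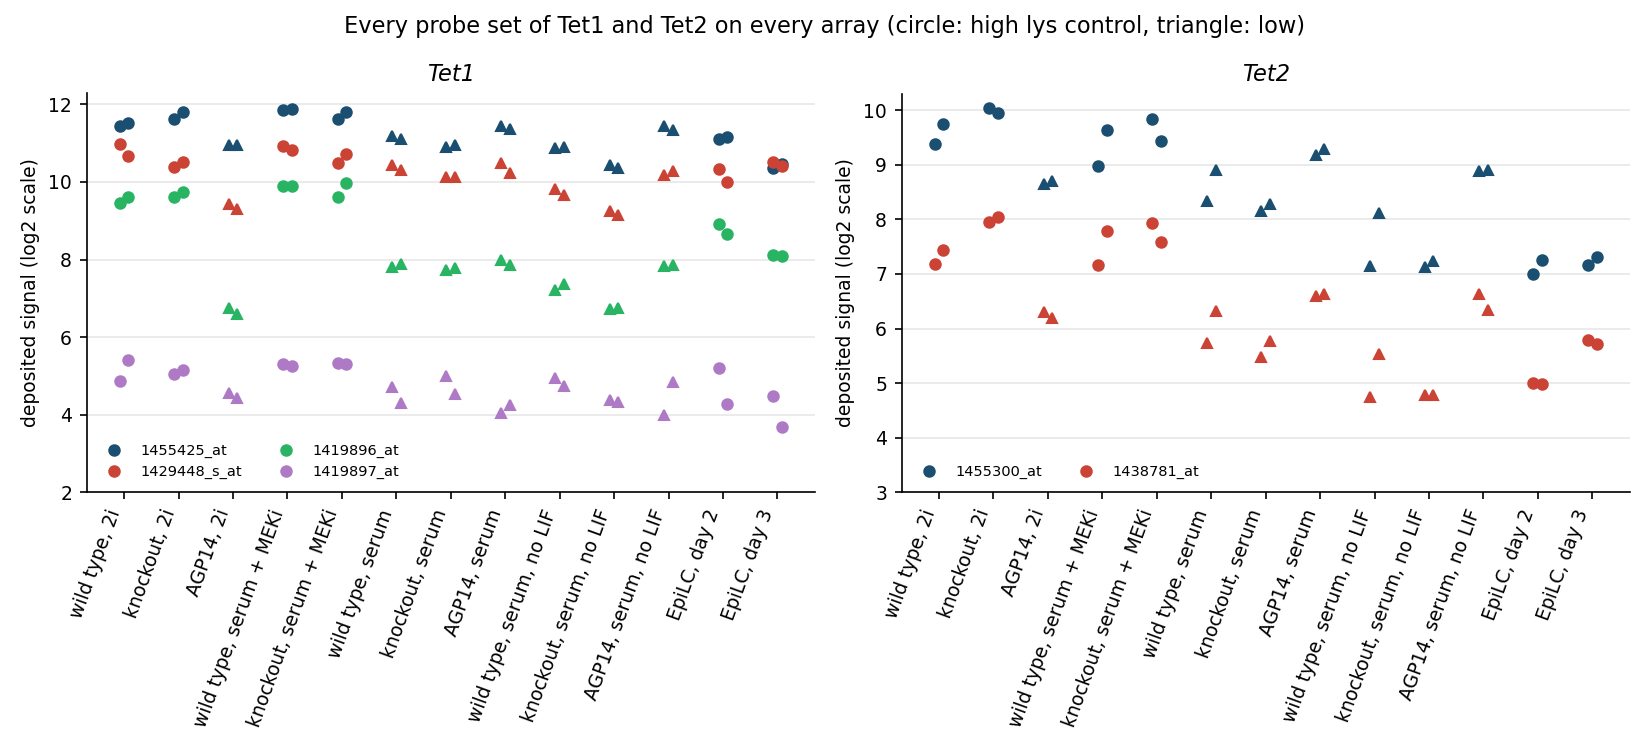
Deposited signal (log2 scale, y axis) of the 4 Tet1 and 2 Tet2 probe sets in the 13 groups (x axis), with both arrays of a group side by side; circles are arrays with the high and triangles with the low lys control. The Tet1 probe set 1419896_at splits by lys control, and 1429448_s_at does not fall from EpiLC day 2 to day 3.

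The further probe sets were read in the same fit, each in place of its gene's main one. For Tet1, 1429448_s_at (mean 10.22) had the sign of the main probe set in 18 of 22 comparisons and passed with that sign in 12 of its 16 calls. Probe set 1419896_at (mean 8.30) shared the sign in 21 of 22 and passed in 14 of the 16. The dim 1419897_at (mean 4.71) passed in 0 and shared the sign in 13. For Tet2, 1438781_at (mean 6.32) shared the sign in 21 of 22 and passed in all 9 comparisons called on the main probe set. The 2 Tet2 probe sets correlated at r = 0.98 within each of the lys sets (12 and 14 arrays), while Tet1 1455425_at and 1429448_s_at correlated at 0.44 in the high set and 0.81 in the low set. Which transcripts or ends of Tet1 each probe set reads was not analysed here.

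On their main probe sets Tet1 and Tet2 varied together across the arrays. Over 26 arrays Pearson's r between them was 0.84, with 0.82 over the 12 arrays of the high lys set and 0.86 over the 14 of the low set. With the main Tet2 probe set, the Tet1 probe sets 1429448_s_at, 1419896_at and 1419897_at reached 0.52, 0.59 and 0.42 over 26 arrays. Between wild-type replicates of a medium Tet2 differed by 0.37 to 0.98 and Tet1 by -0.08 to 0.10. The arrays share labelling, feeders and group, so these correlations are descriptions. The arrays farthest from the common course are EpiLC of day 2, where Tet2 was at its lowest mean while Tet1 was in the middle of its range. Tet3, with a signal near the bottom of the scale, correlated with neither (-0.05 with Tet1 and -0.18 with Tet2), so its course could not be read.

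**Figure D4:**
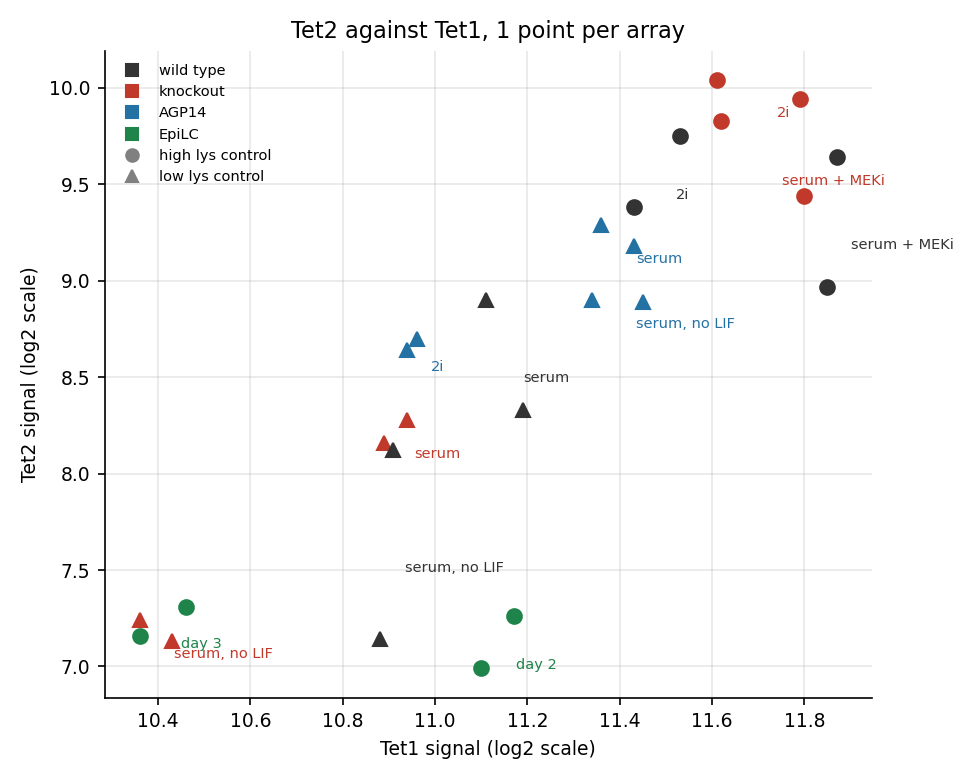
Tet2 signal (y axis) against Tet1 signal (x axis), both on the log2 scale, 1 point per array, coloured by genotype with the medium or day written near each pair; circles have the high and triangles the low lys control. Points, from the main probe sets, rise together (r = 0.84 over 26 arrays), and EpiLC of day 2 lie below the others at their Tet1 level.

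Genes with the most similar course were sought over the 13 group means, among genes above the median level whose means spanned at least 1 log2 unit. Nearest to Tet1 were Hsd17b14 (r = 0.954), Rbm12b1 (0.954), Gdf3 (0.95), Rinl (0.948) and Kank3 (0.939). Nearest to Tet2 were Esrrb (0.966), the orphan nuclear receptor of naive cells, then Tsc22d1 (0.965), Xrn2 (0.965), Cdc5l (0.964) and Mylpf (0.962). The most opposite were Apbb1 (-0.961), Rfxap (-0.924) and Retreg2 (-0.92) for Tet1, and Csnk2a2 (-0.956), Ppp2r5a (-0.955) and Card19 (-0.95) for Tet2. For Tet3 the closest gene, Gtsf1, reached only 0.733. With 13 points and many candidates, these name genes of similar course and no more.

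Tet3 gave no result above its spread. Its arrays lay 2.95 apart in knockout cells with MEK inhibitor (3.46 and 0.51) and 1.60 apart in wild-type 2i (3.21 and 1.61). The highest mean was EpiLC of day 2 at 3.32 ± 0.11 and the lowest knockout lacking LIF at 1.64 ± 1.02, and every neighbouring pair in the order overlapped. Its largest difference in size, -1.28 in knockout lacking LIF against serum, did not pass, and the smallest adjusted p over the 22 comparisons was 0.386. Without replicate 1 of knockout with MEK inhibitor, which left the array at 0.51, MEK inhibitor against serum in knockout passed (-2.41, adjusted p = 0.0263). At this signal a change in Tet3 was not detectable, which does not show that there was none.

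Genes that work with TET proteins were read from lists of partners, cosubstrate supply, repair, readers and DNA methyltransferases, for AGP14 against knockout and knockout against wild type, both lacking LIF, knockout against wild type in 2i, and EpiLC of day 2. The comparisons were chosen with the Tet values known, and the share of all genes that passed stands beside the counts of each. For AGP14 against knockout lacking LIF, where 13.3% of all genes passed, 7 of 20 TET partners and regulators rose and 1 fell, with a list median of 0.21 against 0.01 over all genes. That count includes Prdm14 itself (1.36, adjusted p = 0.0326), the gene altered in these cells. Its probe set did not follow the labels (-2.08 for AGP14 against knockout in 2i). Whether the rise reads the transgene was not tested. Nanog and Dppa3 of this list also belong to the stem cell and naive markers counted above. The pluripotency factor Nanog, which binds TET proteins, rose by 1.99 (SE 0.18, adjusted p = 8.19e-07), the coactivator Ncoa3 by 0.69 and the repressor Rest by 0.43, while Cul4a, a scaffold of the CRL4 ubiquitin ligase, fell (-0.41, adjusted p = 0.0147). Of 15 genes for 2-oxoglutarate supply and TET inhibitors 3 rose and 1 fell, led by Idh2, which makes 2-oxoglutarate in mitochondria (1.05, SE 0.09, adjusted p = 3.87e-07). Of 17 other chromatin and nucleic acid dioxygenases of the same cosubstrate 4 rose and 0 fell: the histone demethylases Kdm3a (1.21), Kdm4b (0.72), Kdm2b (0.71) and Kdm3b (0.43). The list for removal of oxidised cytosine and base excision repair also holds cytidine deaminases. Of its 15 genes 2 rose, a share near that of all genes: the deaminase Apobec3 (1.17) and Parp1 (0.36). Of 13 readers of methylated or hydroxymethylated cytosine 3 rose and 1 fell. The methyltransferase list held 6 genes: Dnmt1, Dnmt3a, Dnmt3b, the cofactor Dnmt3l, Trdmt1 and Uhrf1, which is also counted among the readers. Of these 6 genes 2 rose and 1 fell, with Dnmt1 at 0.52 and Dnmt3b at -0.80. Of 8 genes of vitamin C and iron handling 1 rose and 3 fell, among them the iron exporter Slc40a1 (-1.51) and the vitamin C transporter Slc23a1 (-1.49).

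The knockout lacking LIF, where Tet1 alone of the family passed against wild type, had 0 to 3 passing genes in each of these lists, where 4.19% of all genes passed. Of 20 TET partners and of 13 readers 0 passed. Idh2 (-0.49, SE 0.09, adjusted p = 0.0038) and Idh3g (-0.21) fell among 15 supply genes, and Kdm3a (-0.45) fell among 17 dioxygenases. Dnmt1, the maintenance methyltransferase, fell by 0.29 among the 6 genes of the methyltransferase list (-0.29, adjusted p = 0.0439). Of 16 germline genes known to be silenced by promoter methylation 3 fell and 0 rose: Hormad1 (-2.23, SE 0.32, adjusted p = 0.000569), Tex19.1 (-1.54) and Sohlh2 (-1.44). In 2i, where neither Tet1 nor Tet2 passed and 9.15% of all genes did, 4 of these 16 fell, Sohlh2 (-2.90), Hormad1 (-2.79), Dazl (-2.40) and Slc25a31 (-1.92), while Dnmt3l and Dnmt3b, a cofactor and an enzyme of new methylation, rose by 3.07 and 1.97 and Dnmt1 fell (-0.31, adjusted p = 0.0177). The medians of the germline list were -0.50 lacking LIF and -0.75 in 2i, against -0.01 and -0.03 over all genes.

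In EpiLC of day 2 against wild-type 2i the enzymes of new methylation, Dnmt3a and Dnmt3b, and their cofactor Dnmt3l rose while Tet2 fell. Dnmt3a rose by 4.88 (SE 0.36, adjusted p = 3.83e-09), Dnmt3b by 3.76 and Dnmt3l by 2.15, with 4 of 6 genes of the list rising and 2 falling, where 38.3% of all genes passed. Among TET partners 6 rose and 7 fell of 20, Lin28a rising by 2.36 and Nanog falling (-2.39), and among supply genes 3 rose and 8 fell of 15, led by Idh2 (-1.70, SE 0.09, adjusted p = 5.47e-11). Kdm3a (-1.35) and Kdm3b (-1.33) fell, 2 of the 4 falls among 17 dioxygenases, of which 1 rose. Of 13 readers 2 rose and 7 fell, and of the germline genes 7 rose and 1 fell of 16. In AGP14 cells from 2i to serum, where 18.2% of all genes passed, Dnmt3a (3.00), Dnmt3l (1.66) and Dnmt3b (0.93) rose together with Tet1. The direction of these genes relative to Tet1 thus differed between this comparison and EpiLC of day 2. That difference was not tested.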

How the data were processed

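Messenger RNA was measured on 26 Affymetrix arrays, 1 per sample, in 13 groups of 2. The values deposited by the authors are log2-scale signals of probe sets; how they were background-corrected, normalized and summarised, and their log base, are not stated in the sources at hand. The arrays share a common scale, with medians from 4.86 to 5.01. Base 2 was inferred from the highest value. Gene symbols came from the platform's annotation, and genes were located with RefSeq tables of GRCm38.p6, which held promoter windows for all 3 members.

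A group-means model over all 26 arrays was fitted to 18193 genes with limma 3.58.1 in R 4.3.3, with an intensity trend, 13 residual degrees of freedom and two-sided tests adjusted by Benjamini-Hochberg within each comparison. The procedure was tested on simulated data. Alternatives were quantile normalization, other probe sets, a filter on dim genes, no trend, only the arrays compared, the replicate number or the line (genotype and number) as a block, and leaving out each array. Same-numbered arrays of 1 genotype correlated across media in their deviations from group means (0.42 to 0.79), so block values stand beside the media comparisons they change; nothing in the labels says that numbers mark a shared culture. The lys set could not be fitted as a block, since each group lies in 1 set.

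The members, lists and comparisons were chosen with earlier results of these data known. Named genes are the members, the up to 5 members of each list with the lowest p in a comparison, Prdm14 and the methyltransferases as references, and for each member the 5 genes most and, for Tet1 and Tet2, the 3 least like it by the correlation of group means. List members matched by no probe set of a single symbol, such as Tdg, are not analysed here. The number of arrays limits the precision of all values.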

Additional observations from a re-analysis of the deposited data

Results flagged for a closer look

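The Tet1 difference between knockout and wild type was 0.22 in 2i and -0.23 in serum, and the difference between these was tested as an interaction and passed (-0.45, SE 0.10, adjusted p = 0.0203). Each of the genotype differences lies within 1 lys set, the high set in 2i and the low set in serum. Set and medium therefore cannot be told apart in the interaction. The further Tet1 probe sets gave 0.13 and -0.24, neither of which passed.

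The response of Tet1 to serum against 2i was 0.44 in AGP14 and -0.78 in knockout, an interaction of 1.23 (SE 0.10, adjusted p = 4.39e-07). That of Tet2 was 0.57 and -1.77, an interaction of 2.33 (SE 0.36, adjusted p = 0.00027). The AGP14 arrays of both media lie in the low lys set, whereas the knockout arrays lie in the high set in 2i and in the low set in serum, so set and medium cannot be told apart in the knockout response.

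Groups of 2 arrays are too small for a single array to be called apart from its group.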

How the results depend on the processing

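The differences of Tet1 and Tet2 between AGP14 and knockout without LIF, and of both genes between EpiLC day 2 and wild-type 2i, kept their direction and stayed past the threshold under every alternative run, except on the dim Tet1 probe set 1419897_at. Each sentence below names the results that crossed the threshold or changed sign under an alternative, with the log2 difference; the cause was not tested, except that a fit of only the arrays compared and the fits that leave out an array rest on fewer samples, and that leaving out dim genes lowers the number of genes tested.

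After quantile normalization, Tet1 newly passed for knockout against wild type in 2i (0.27), the LIF response of AGP14 minus knockout (0.53). Tet2 no longer passed for AGP14 against wild type in 2i (-0.74). With the mean of all probe sets of a gene, Tet1 changed sign for knockout against wild type in 2i (-0.01), AGP14 against wild type in serum (-0.01), the genotype difference with MEK inhibitor minus that in serum (-0.04). Tet2 changed sign for the genotype difference without LIF minus that in serum (0.01). Tet1 no longer passed for AGP14 against knockout in serum (0.07), AGP14 against wild type without LIF (0.28), MEK inhibitor against 2i in wild type (0.23), the genotype difference in serum minus that in 2i (-0.06). Tet2 newly passed for MEK inhibitor against serum in wild type (1.06). On probe set 1429448_s_at, Tet1 changed sign for knockout against wild type in 2i (-0.38), AGP14 against wild type in serum (-0.03), EpiLC day 3 against EpiLC day 2 (0.30), the genotype difference in serum minus that in 2i (0.13), the genotype difference with MEK inhibitor minus that in serum (-0.01). Tet1 no longer passed for AGP14 against knockout in serum (0.22), MEK inhibitor against 2i in wild type (0.04). Tet1 newly passed for medium without LIF against serum in wild type (-0.63). On probe set 1419896_at, Tet1 no longer passed for AGP14 against knockout in serum (0.18), AGP14 against wild type in serum (0.09), the genotype difference in serum minus that in 2i (-0.24). Tet1 newly passed for medium without LIF against serum in wild type (-0.54), the LIF response of AGP14 minus knockout (0.94). Tet1 changed sign for the genotype difference with MEK inhibitor minus that in serum (-0.03). On the dim probe set 1419897_at, Tet1 changed sign for knockout against wild type in 2i (-0.04), knockout against wild type in serum (0.26), knockout against wild type with MEK inhibitor (0.04), AGP14 against knockout in serum (-0.62), AGP14 against wild type in serum (-0.36), AGP14 against wild type without LIF (-0.43), serum against 2i in AGP14 (-0.36), without LIF against serum in wild type (0.35), the genotype difference in serum minus that in 2i (0.30), the genotype difference with MEK inhibitor minus that in serum (-0.22), the serum response of AGP14 minus knockout (-0.02). Tet1 no longer passed for knockout against wild type without LIF (-0.49), AGP14 against knockout in 2i (-0.60), AGP14 against knockout without LIF (0.06), AGP14 against wild type in 2i (-0.64), serum against 2i in wild type (-0.64), serum against 2i in knockout (-0.33), without LIF against serum in knockout (-0.41), MEK inhibitor against serum in wild type (0.78), MEK inhibitor against serum in knockout (0.55), MEK inhibitor against 2i in wild type (0.14), EpiLC day 2 against wild type in 2i (-0.40), EpiLC day 3 against EpiLC day 2 (-0.66). On probe set 1438781_at, Tet2 newly passed for MEK inhibitor against serum in wild type (1.43), EpiLC day 3 against EpiLC day 2 (0.76). Tet2 changed sign for MEK inhibitor against 2i in wild type (0.15), the genotype difference without LIF minus that in serum (0.07). With genes whose mean lay under the median of all genes left out, Tet1 newly passed for knockout against wild type in 2i (0.22), knockout against wild type in serum (-0.23), without LIF against serum in wild type (-0.25), the LIF response of AGP14 minus knockout (0.52). Tet2 newly passed for medium without LIF against serum in wild type (-0.98), without LIF against serum in knockout (-1.03), MEK inhibitor against serum in wild type (0.69). Without the intensity trend, Tet1 no longer passed for AGP14 against wild type in serum (0.25), the genotype difference in serum minus that in 2i (-0.45). With only the arrays compared in the fit, Tet1 no longer passed for knockout against wild type without LIF (-0.50), AGP14 against wild type in serum (0.25), without LIF against serum in knockout (-0.52), MEK inhibitor against 2i in wild type (0.38), the genotype difference in serum minus that in 2i (-0.46). Tet2 no longer passed for AGP14 against wild type without LIF (1.27). Tet2 newly passed for serum against 2i in AGP14 (0.57), without LIF against serum in AGP14 (-0.34). With the replicate number as a block, Tet1 newly passed for knockout against wild type in 2i (0.22), the LIF response of AGP14 minus knockout (0.52). Tet2 newly passed for medium without LIF against serum in wild type (-0.99), without LIF against serum in knockout (-1.03), MEK inhibitor against serum in wild type (0.69). With the line as a random block, Tet1 newly passed for medium without LIF against serum in wild type (-0.26), the LIF response of AGP14 minus knockout (0.52). Tet2 newly passed for serum against 2i in AGP14 (0.57), without LIF against serum in wild type (-0.98), without LIF against serum in knockout (-1.03), MEK inhibitor against serum in wild type (0.69). Tet3 passed in none of the 22 comparisons under these alternatives; with the dim genes left out it was not in the fit.

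The replicate block was tried because groups share replicate numbers. Over 16 pairs of groups of the same genotype, arrays of the same number deviated together at a correlation of 0.01 (EpiLC) to 0.79, and over 62 pairs of groups of different genotype at -0.17 to 0.16, so the numbers follow arrays within a genotype and not across genotypes. The replicate block changed no other call than those given above.

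When each array was left out in turn, 38 of 54 differences of Tet1 and Tet2 kept their side of the threshold in every fit and, apart from Tet1 without LIF against serum in AGP14 (0.00, from -0.05 to 0.06), their direction. The number of comparisons in which Tet3 passed was 0 to 1, the 1 being without knockout replicate 1 with MEK inhibitor. The others are given by their lowest and highest value. Tet1 ranged from 0.20 to 0.28 for AGP14 against wild type in serum, from -0.01 to 0.18 for the genotype difference with MEK inhibitor minus that in serum, from -0.55 to -0.37 for the genotype difference in serum minus that in 2i, from 0.13 to 0.31 for knockout against wild type in 2i, from -0.08 to 0.10 for MEK inhibitor against 2i in knockout. Tet2 ranged from 0.95 to 1.07 for AGP14 against knockout in serum, from -1.08 to -0.71 for AGP14 against wild type in 2i, from 0.78 to 1.75 for AGP14 against wild type without LIF, from -0.03 to 0.24 for EpiLC day 3 against EpiLC day 2, from -0.54 to 0.44 for the genotype difference without LIF minus that in serum, from -0.01 to 0.66 for knockout against wild type with MEK inhibitor, from -0.93 to 0.05 for knockout against wild type without LIF, from -0.59 to 0.08 for MEK inhibitor against 2i in wild type, from 0.36 to 1.03 for MEK inhibitor against serum in wild type, from -1.23 to -0.66 for serum against 2i in wild type, from -1.47 to -0.49 for medium without LIF against serum in wild type. Over all genes, the number that passed for knockout against wild type without LIF was 763, but 20 with only the arrays compared and 466 with the mean of probe sets; for medium without LIF against serum in knockout it was 200, but 9 with only the arrays compared, 118 without the intensity trend and 474 with the line as a random block. Signal over background limits Tet3 and the dim Tet1 probe set, and the number of arrays limits all values.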
